A study of Mus musculus with 21 samples.

Results

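Tumor necrosis factor (TNF) superfamily ligands are mostly trimeric membrane proteins, some of which are cut free, and their receptors either recruit TRAF adaptors that activate NF-kB or carry a death domain that can start apoptosis. Monocytes and macrophages are a main source of TNF itself and carry many of the receptors, so the family is part of how these cells signal to each other and to T and B cells. The 10 genes described here were chosen by name from the 23420 gene symbols of the count table, as 5 ligands (Tnf, Tnfsf9, Tnfsf10, Tnfsf13b and Tnfsf14) and 5 receptors (Tnfrsf1a, Tnfrsf1b, Tnfrsf9, Cd40 and Fas). All 10 were found, and their levels were followed over 21 libraries.

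The libraries were made from inflammatory monocytes (IMs), sorted as CD45+ CD11b+ Ly6C high, Ly6G- cells, which in lung samples were also gated as Siglec-F-. Tumor-associated IMs (TIMs) came from 3 settings with 5 libraries each. Primary tumor TIMs were sorted from lung tumors that KAL-LN2-E1 (LN2E1) cells formed after orthotopic injection into the lung of FVB mice, and lymph node TIMs from lymph node metastases of the same line in the same strain. Lung TIMs were sorted from lungs in which LN4K1 cells had formed metastases after intravenous injection into DBA2 mice. Both are mouse lung squamous carcinoma lines. Bone marrow (BM) IMs from tumor-free adult mice were the baseline, with 3 libraries from FVB and 3 from DBA2 mice. No group held IMs from tumor-free lung or lymph node. Tumor, tissue and the enzyme digestion described for lung samples therefore cannot be told apart where TIMs are compared with BM IMs. The labels name no altered genotype and no drug in any group. Each mouse received 500000 LN2E1 or 300000 LN4K1 cells, and BM donors received 0. Each model is 1 transplanted line, and line, strain, injection route, number of cells injected and tissue differ together between LN2E1 and LN4K1, so they cannot be told apart. The methods call the libraries of a group technical replicates, so every p-value measures the spread between these libraries, which may not be the spread between mice.

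Total counts per library lay between 80772922 and 101043568, and levels are given as counts per 1e6 counts (CPM). A gene with no count in a library could still have up to 3, which is between 0.0268 and 0.0405 CPM, counting error only. CPM values were scaled by TMM, and levels of different genes are compared per kilobase of exon. The genes of the sort markers, Ptprc, Itgam and Ly6c2, and the monocyte genes Ccr2 and Csf1r were detected in every library. Genes with at least 10 counts numbered 11047 in lymph node replicate 1 and between 12433 and 12828 in the other 4 lymph node libraries. They numbered 12015 in LN4K1 lung replicate 3 and between 13272 and 13695 in the other 4 lung libraries. Results that rest on these 2 libraries are given with and without them.

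On the GRCm38 (mm10) assembly the positions of the 10 genes were taken from the GENCODE annotation, whose exons also gave the lengths used here. Tnf occupies chr17:35199381-35202007 on the minus strand. Tnfsf9 (chr17:57105325-57107757, plus strand) and Tnfsf14 (chr17:57189492-57194177, minus strand) are neighbors on the same chromosome. Tnfrsf1b (chr4:145213463-145246870) and Tnfrsf9 (chr4:150914562-150946102) share chromosome 4. Tnfsf10 lies at chr3:27317028-27342427, Tnfsf13b at chr8:10006467-10039072, Tnfrsf1a at chr6:125349362-125362484, Cd40 at chr2:165055627-165072948 and Fas at chr19:34290666-34327772. The exons of 1 of the 10, Tnfsf9, overlap another annotated gene, the noncoding Gm11110 on the opposite strand, over 192 bases or 14.9% of their length. The libraries do not mark strand, so reads in those 192 bases cannot be assigned to 1 of the 2 genes.

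Because NF-kB and AP-1 are known to act on several of these genes, the 250 bases before the annotated start were read for 8 of them (10 starts, RefSeq, GRCm38.p6) and searched on both strands for a kB-type motif, GGNNNTTCC, and an AP-1-type motif, TGANTCA. The kB-type letters stood before 3 of the 10 starts, those of Tnf and Tnfrsf1a and 1 of Tnfrsf9, against 15.7% of 32851 mouse promoters. The AP-1-type letters stood before 4 starts, those of Tnfsf14 and Fas and 1 each of Tnfrsf9 and Tnfsf13b, against 6.75% of promoters. A match describes the letters and is not a measured binding site. Below are 4 of these sequences, chosen because the genes rose in TIMs and show a match of each type or none, with matches in capitals; no 2 matches overlap.
Tnf, chr17:35202008-35202257, minus strand: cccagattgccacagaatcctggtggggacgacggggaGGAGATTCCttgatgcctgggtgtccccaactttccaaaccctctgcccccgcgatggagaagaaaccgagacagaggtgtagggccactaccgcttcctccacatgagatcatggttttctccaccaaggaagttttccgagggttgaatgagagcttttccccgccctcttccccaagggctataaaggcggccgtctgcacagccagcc
Tnfsf14, chr17:57194182-57194431, minus strand: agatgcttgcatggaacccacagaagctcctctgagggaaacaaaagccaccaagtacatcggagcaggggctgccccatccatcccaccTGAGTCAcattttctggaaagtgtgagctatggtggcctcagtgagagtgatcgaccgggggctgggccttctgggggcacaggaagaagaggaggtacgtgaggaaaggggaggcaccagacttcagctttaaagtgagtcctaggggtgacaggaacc
Fas, chr19:34290409-34290658, plus strand: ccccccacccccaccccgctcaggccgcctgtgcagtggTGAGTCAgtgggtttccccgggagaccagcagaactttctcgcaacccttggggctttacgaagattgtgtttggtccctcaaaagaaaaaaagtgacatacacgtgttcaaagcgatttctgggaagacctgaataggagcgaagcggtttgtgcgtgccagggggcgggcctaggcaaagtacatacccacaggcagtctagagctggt
Tnfrsf1b, chr4:145246871-145247120, minus strand: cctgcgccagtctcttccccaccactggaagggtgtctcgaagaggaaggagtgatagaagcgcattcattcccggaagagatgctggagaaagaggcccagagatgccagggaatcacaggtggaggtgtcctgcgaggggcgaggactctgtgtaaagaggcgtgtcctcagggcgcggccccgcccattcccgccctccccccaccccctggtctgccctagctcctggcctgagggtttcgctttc
The kB-type match of Tnf begins 212 bases before its start, and the AP-1-type matches of Tnfsf14 and Fas begin 160 and 211 bases before theirs. The Tnfrsf1b stretch holds neither.

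Most of the 10 genes had more RNA in TIMs than in BM IMs, which differ in tissue as well as in tumor. In primary tumor TIMs 9 of the 10 genes were higher than in FVB BM IMs at an adjusted p under 0.05, in lymph node TIMs 7 of 10, and in LN4K1 lung TIMs 8 of 10 against DBA2 BM IMs. All 10 passed the filter on low counts in these comparisons, Tnfrsf9 through its TIM libraries alone, so that it had to differ to be tested; without it the counts are 8, 7 and 7 of 9. The number lower at that threshold in edgeR was 0 in all 3 comparisons. At an unadjusted p under 0.05 it was 1 in primary tumor TIMs, Tnfsf13b, and 0 in the others, and DESeq2 without shrinkage called 9, 8 and 8 genes higher and 0 lower. Over all genes tested, 33.3% were higher and 28.6% lower in primary tumor TIMs, 20.2% higher and 17.2% lower in lymph node TIMs, and 13.9% higher and 11.0% lower in lung TIMs. The median log2 fold change of the 10 genes was 1.83, 1.85 and 0.93 in the 3 comparisons, beside 0.08, -0.04 and 0.03 over all genes tested. The first 2 comparisons share the FVB BM IM libraries and so are not independent. With the replicate number added to the edgeR fit, 9, 7 and 3 of the 10 genes were higher. Over all genes, that fit lowered the number called in lung TIMs from 3389 to 1324. In these bulk samples, more cells that express a gene and more RNA per cell cannot be told apart.

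**Figure D1:**
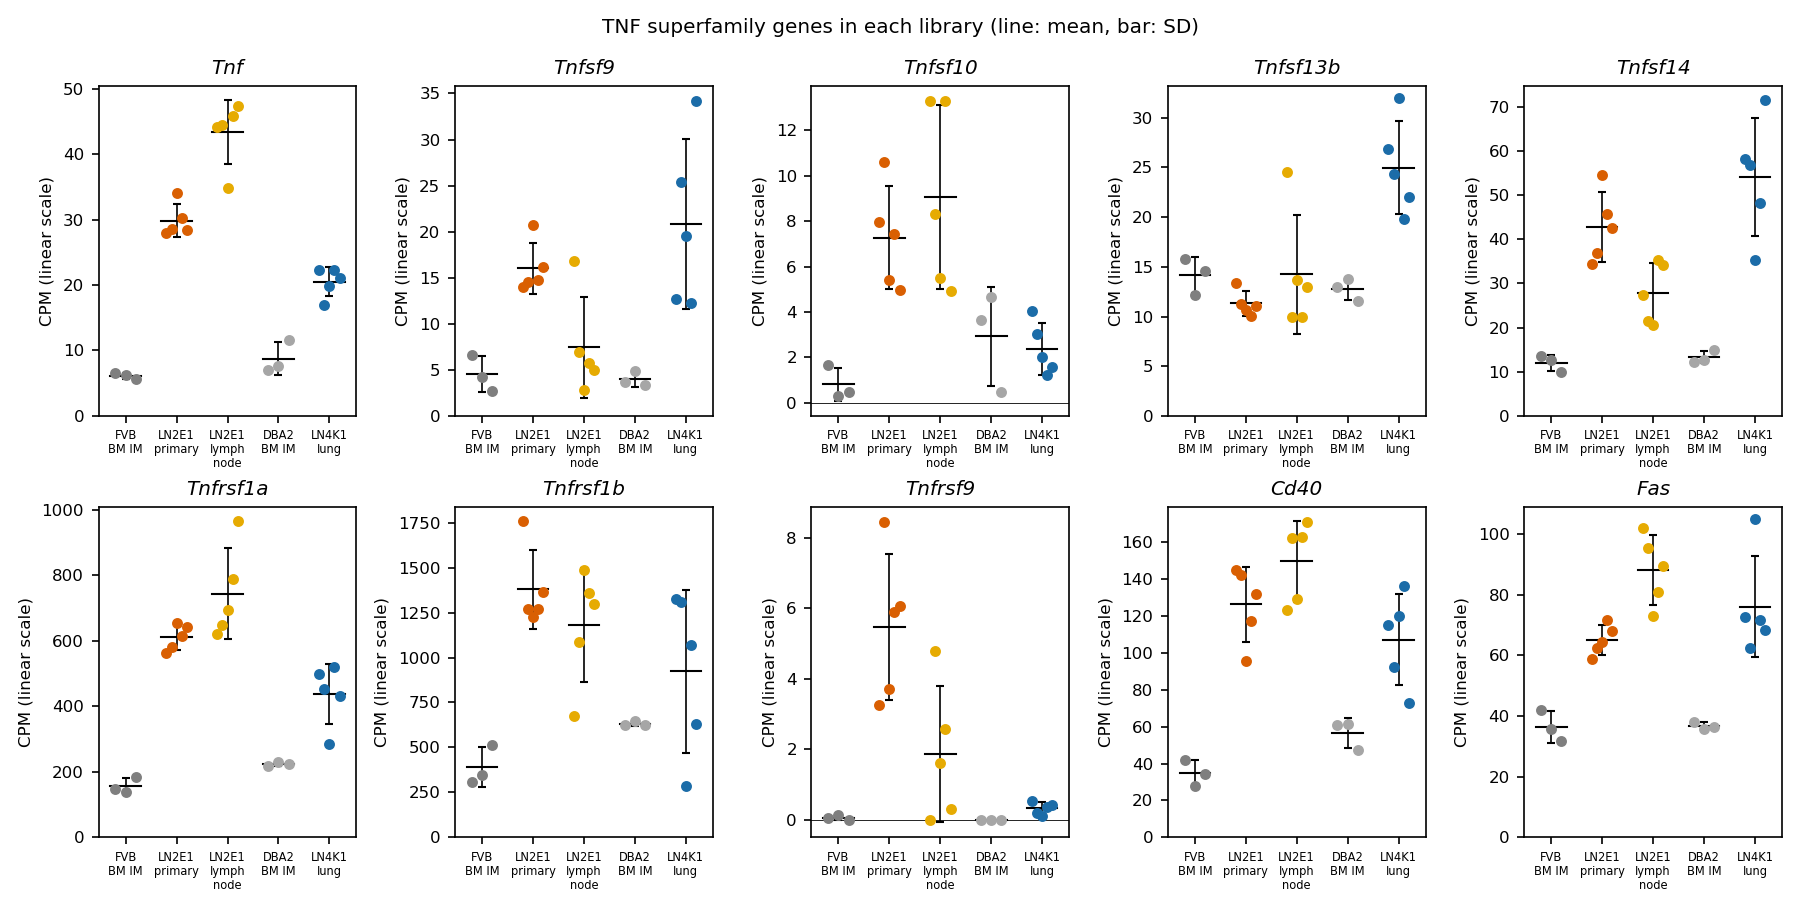
Level of each of the 10 genes in CPM (linear y axis, separate scale per gene) for every library, in 5 groups along the x axis; each point is 1 library, the line is the group mean and the bar the SD. Tnf lies at 28.0 to 34.0 CPM in primary tumor TIMs and 5.60 to 6.57 CPM in FVB BM IMs, and Tnfsf13b stands above its BM IMs in every LN4K1 lung library.

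The study's own, stricter thresholds were an adjusted p under 0.0001 with an absolute log2 fold change over 1. They were passed by 5 of the 10 genes in primary tumor TIMs (Tnf, Tnfrsf1a, Tnfrsf1b, Cd40 and Tnfsf14), by 3 in lymph node TIMs (Tnf, Tnfrsf1a and Cd40) and by 0 in lung TIMs in edgeR, where 12.9%, 5.71% and 2.97% of all genes tested passed in either direction. Beside that 0, 8 of the 10 genes had an unadjusted p under 0.05 in lung TIMs, and DESeq2 with shrunken fold changes passed 4 genes. These stricter counts rest on single libraries: they fell to 2 and 1 in the 2 LN2E1 comparisons without FVB BM replicate 2, and rose to 2 in the lung comparison without lung replicate 3.

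Tnf, the founding cytokine of the family and an inducer of inflammation, had 6.57, 6.23 and 5.60 CPM in the 3 FVB BM IM libraries. The 5 primary tumor TIM libraries had 28.0, 28.6, 34.0, 30.3 and 28.4 CPM. The 5 lymph node TIM libraries had 44.2, 44.5, 34.9, 45.9 and 47.4 CPM, so each lay above every primary tumor library. Against FVB BM IMs the log2 fold change was 2.26 (SE 0.13, adjusted p = 7.44e-07) in primary tumor TIMs and 2.82 (SE 0.18, adjusted p = 2.68e-06) in lymph node TIMs, or 4.81-fold and 7.08-fold. DBA2 BM IMs had 7.06, 7.61 and 11.6 CPM and LN4K1 lung TIMs 22.3, 17.0, 19.9, 22.3 and 21.1 CPM. The groups did not overlap, and the rise was 2.22-fold (log2 1.15, SE 0.21, adjusted p = 0.00316). From highest to lowest, the group means ran from lymph node (43.4 ± 4.92, SD, n = 5), primary tumor (29.9 ± 2.46, n = 5) and lung TIMs (20.5 ± 2.23, n = 5) to DBA2 (8.76 ± 2.49, n = 3) and FVB BM IMs (6.13 ± 0.490, n = 3), with the 2 BM groups not separated by the test (adjusted p = 0.141).

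Tnfsf14, also called LIGHT, is a ligand that engages the lymphotoxin beta receptor and acts as a T cell costimulator. It had between 9.98 and 13.5 CPM in FVB BM IMs, between 34.3 and 54.5 CPM in primary tumor TIMs and between 20.5 and 35.4 CPM in lymph node TIMs. In DBA2 BM IMs it had between 12.3 and 14.9 CPM and in LN4K1 lung TIMs between 35.3 and 71.6 CPM. Every TIM library was above every BM IM library of its strain. The rise was 3.52-fold in primary tumor TIMs (log2 1.81, SE 0.18, adjusted p = 2.36e-05), 2.31-fold in lymph node TIMs (log2 1.21, SE 0.25, adjusted p = 0.00372) and 3.85-fold in lung TIMs (log2 1.94, SE 0.23, adjusted p = 0.000236). The rise of Tnfsf14 in the 2 models differed by a log2 value of -0.11 (SE 0.28, adjusted p = 0.828), which leaves a difference of either sign within its error. Of the ligands it had the smallest adjusted p in the lung comparison.

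Tnfsf9 is the ligand of the costimulatory receptor Tnfrsf9, and the pair were measured in the same cells. FVB BM IMs had 6.58, 4.25 and 2.72 CPM of Tnfsf9, and primary tumor TIMs 14.0, 14.5, 20.7, 14.7 and 16.2 CPM, a 3.52-fold rise (log2 1.82, SE 0.28, adjusted p = 0.000371). DBA2 BM IMs had 3.70, 4.90 and 3.35 CPM and lung TIMs 12.7, 25.4, 19.5, 12.3 and 34.2 CPM, a 4.95-fold rise (log2 2.31, SE 0.38, adjusted p = 0.00187). Both sets of TIMs lay wholly above their BM IMs. Lymph node TIMs had 16.8 CPM in replicate 1 and 6.99, 2.77, 5.69 and 4.94 CPM in the other 4, and these 4 overlapped the FVB BM IMs. The log2 fold change in lymph node TIMs was 0.72 (SE 0.58, adjusted p = 0.374), and 0.18 (adjusted p = 0.762) without replicate 1. Between lymph node and primary tumor TIMs the log2 difference was -1.10 (SE 0.40, adjusted p = 0.104) in edgeR. Without lymph node replicate 1 it was -1.64 (adjusted p = 0.00306), and in DESeq2 on all libraries -1.12 (adjusted p = 0.0348). The call thus depends on 1 library and on the method.

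Tnfrsf9 itself was among the least abundant of the 10 genes. It had 3, 12 and 0 counts in the FVB BM IM libraries and 0 counts in all 3 DBA2 BM IM libraries. Primary tumor TIMs had 303, 747, 320, 534 and 521 counts, which is 3.26, 8.44, 3.72, 5.90 and 6.06 CPM. The fitted log2 fold change was 6.69 (SE 0.84, adjusted p = 0.000112), a size that depends on the few counts of the BM IMs. Tnfrsf9 was tested through its TIM libraries alone and so had to differ. Its adjusted p values in this paragraph are therefore no support for a rise. Lymph node TIMs had 0, 361, 136, 209 and 26 counts, and with that spread the log2 fold change of 5.13 (SE 2.11) did not pass the threshold (adjusted p = 0.0836). Without lymph node replicate 1, the library at 0, it was 5.46 (adjusted p = 0.0125). Lung TIMs had 45, 19, 7, 35 and 37 counts, between 0.0945 and 0.522 CPM. Set against the 3-count limit of the DBA2 BM IM libraries (mean 0.0308 CPM), the lung TIM mean of 0.318 CPM was at least 10.3-fold higher. The lowest lung TIM library was at least 3.07-fold higher, and the adjusted p in lung TIMs was 0.00877. In CPM per kilobase, Tnfrsf9 averaged 2.01 in primary tumor TIMs, where its ligand Tnfsf9 averaged 12.4.

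Tnfsf10, known as TRAIL, binds death receptors on other cells. It had 1.66, 0.316 and 0.474 CPM in FVB BM IMs, against 7.98, 10.6, 5.41, 7.45 and 4.96 CPM in primary tumor TIMs and 13.3, 8.32, 5.51, 13.3 and 4.93 CPM in lymph node TIMs. Every LN2E1 library was above every FVB BM IM library, by 8.88-fold in primary tumor TIMs (log2 3.15, SE 0.56, adjusted p = 0.000979) and 11.1-fold in lymph node TIMs (log2 3.48, SE 0.70, adjusted p = 0.00341). DBA2 BM IMs had 3.63, 4.68 and 0.496 CPM and LN4K1 lung TIMs 4.04, 3.05, 2.0, 1.24 and 1.58 CPM. These 2 groups overlapped (log2 -0.37, SE 0.65, adjusted p = 0.73), and the sign turned to 0.14 without DBA2 BM replicate 2. Its counts per library were low, between 31 and 1098, and its SD was as much as 90.0% of a group's mean.

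Tnfsf13b, the B cell survival factor BAFF, was the 1 gene of the 10 called in neither LN2E1 comparison. FVB BM IMs had 15.8, 12.2 and 14.6 CPM and primary tumor TIMs 13.4, 11.3, 10.7, 10.1 and 11.1 CPM, with a log2 difference of -0.35 (SE 0.14, adjusted p = 0.0582). Without primary tumor replicate 1 it was called lower there (log2 -0.41, adjusted p = 0.0325). Lymph node TIMs had 24.5 CPM in replicate 1 and 10.0, 13.7, 10.0 and 13.0 CPM in the others, so the log2 fold change of 0.01 (SE 0.32, adjusted p = 0.989) became -0.28 (adjusted p = 0.324) without replicate 1. Lung TIMs had 26.8, 24.3, 32.0, 19.8 and 22.0 CPM, all above the 13.0, 13.8 and 11.6 CPM of DBA2 BM IMs. That rise was 1.86-fold (log2 0.89, SE 0.18, adjusted p = 0.00672). Of the 3 TIM groups, the lung TIMs were the 1 that stood wholly above the BM IMs of their strain in this gene.

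Of the receptors, Tnfrsf1a encodes TNF receptor 1, which is expressed widely and carries a death domain. It had 147, 138 and 184 CPM in FVB BM IMs, 564, 580, 654, 615 and 643 CPM in primary tumor TIMs and 622, 649, 693, 787 and 965 CPM in lymph node TIMs. The rise was 3.85-fold (log2 1.95, SE 0.12, adjusted p = 1.56e-06) and 4.75-fold (log2 2.25, SE 0.18, adjusted p = 1.27e-05). Lymph node and primary tumor TIMs overlapped, and their log2 difference of 0.29 (SE 0.12) did not pass the threshold (adjusted p = 0.144). DBA2 BM IMs had 219, 229 and 225 CPM and lung TIMs 499, 452, 286, 521 and 431 CPM, a 1.85-fold rise (log2 0.89, SE 0.19, adjusted p = 0.00775). The lowest lung library, replicate 3, was still above all DBA2 BM IMs, and without it the log2 fold change was 1.01 (adjusted p = 3.05e-05).

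Tnfrsf1b encodes TNF receptor 2, which lacks a death domain and signals through TRAF2. FVB BM IMs had 310, 345 and 516 CPM, primary tumor TIMs 1760, 1268, 1228, 1271 and 1367 CPM, and lymph node TIMs 673, 1088, 1487, 1356 and 1300 CPM. Each TIM library was above each FVB BM IM library, with log2 fold changes of 1.79 (SE 0.20, adjusted p = 5.01e-05) and 1.59 (SE 0.27, adjusted p = 0.00141). DBA2 BM IMs were close together at 625, 647 and 625 CPM. Lung TIMs had 1326, 1310, 287, 1067 and 632 CPM, so 1 library fell below and 1 within the DBA2 range, and the log2 fold change of 0.48 (SE 0.43) had an adjusted p of 0.469. Without replicate 3, the library at 287 CPM, it was 0.71 (adjusted p = 0.0378).

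The 2 TNF receptors did not rise in the same proportion in each library. Per kilobase of exon, the level of Tnfrsf1b divided by that of Tnfrsf1a was 1.43, 1.70 and 1.90 in FVB BM IMs and 1.94, 1.92 and 1.88 in DBA2 BM IMs. It was 2.12, 1.48, 1.27, 1.40 and 1.44 in primary tumor TIMs and 0.734, 1.14, 1.46, 1.17 and 0.914 in lymph node TIMs. In lung TIMs it was 1.80, 1.97, 0.680, 1.39 and 0.994. Tnfrsf1b was thus the more abundant in all 6 BM IM libraries and all 5 primary tumor libraries, and Tnfrsf1a in 2 of 5 lymph node and 2 of 5 lung libraries. Lymph node replicate 1 and lung replicate 3 are among these, with the lowest ratios, 0.734 and 0.680. Without them, the remaining libraries with more Tnfrsf1a had 0.914 in lymph node and 0.994, near equal, in lung TIMs. These ratios are a description and were not tested.

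**Figure D2:**
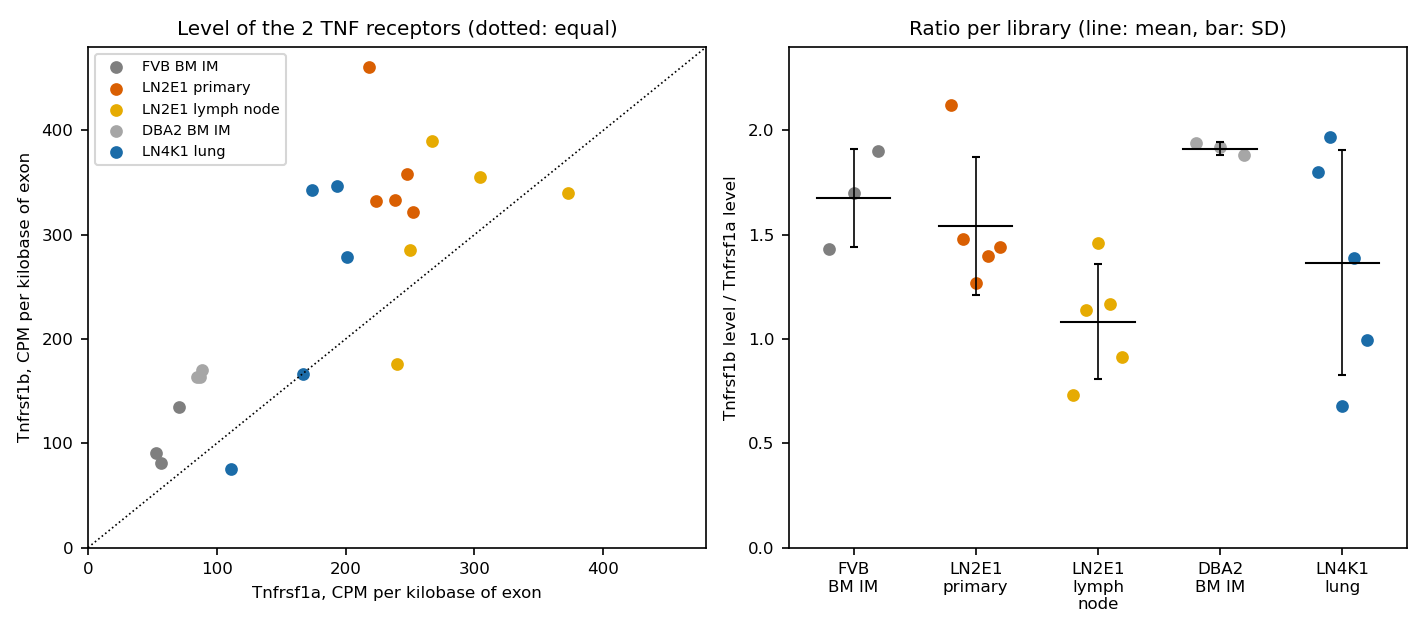
Left, level of Tnfrsf1b (y axis) against Tnfrsf1a (x axis) in CPM per kilobase of exon, 1 point per library, with a dotted line where they are equal; right, their ratio per library in each group, with mean and SD. The mean ratio is 1.68 in FVB and 1.91 in DBA2 BM IMs, 1.54 in primary tumor, 1.08 in lymph node and 1.37 in lung TIMs. The last 2 means include lymph node replicate 1 at 0.734 and lung replicate 3 at 0.680.

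Cd40, a costimulatory receptor through which T cells activate antigen-presenting cells, had between 27.8 and 42.2 CPM in FVB BM IMs. Primary tumor TIMs had between 95.7 and 145 CPM and lymph node TIMs between 123 and 171 CPM, with log2 fold changes of 1.84 (SE 0.18, adjusted p = 1.94e-05) and 2.10 (SE 0.19, adjusted p = 2.05e-05). DBA2 BM IMs had between 47.2 and 61.2 CPM and lung TIMs between 72.8 and 136 CPM, a log2 fold change of 0.85 (SE 0.21, adjusted p = 0.0176). Every TIM library was above the BM IMs of its strain. The lung call was lost when DBA2 BM replicate 2 (adjusted p = 0.0517) or replicate 3 (adjusted p = 0.0878) was left out.

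Fas, the receptor through which Fas ligand triggers apoptosis, had between 31.6 and 42.1 CPM in FVB BM IMs and between 35.8 and 38.0 CPM in DBA2 BM IMs. Primary tumor TIMs had between 58.8 and 71.7 CPM, lymph node TIMs between 72.9 and 102 CPM and lung TIMs between 62.5 and 105 CPM. The TIMs were above their BM IMs in every library, with log2 fold changes of 0.82 (SE 0.11, adjusted p = 0.000183), 1.27 (SE 0.16, adjusted p = 0.000198) and 0.97 (SE 0.18, adjusted p = 0.00334). Each lymph node library lay above each primary tumor library. Fas had the smallest rise of the 9 genes called in primary tumor TIMs.

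**Figure D3:**
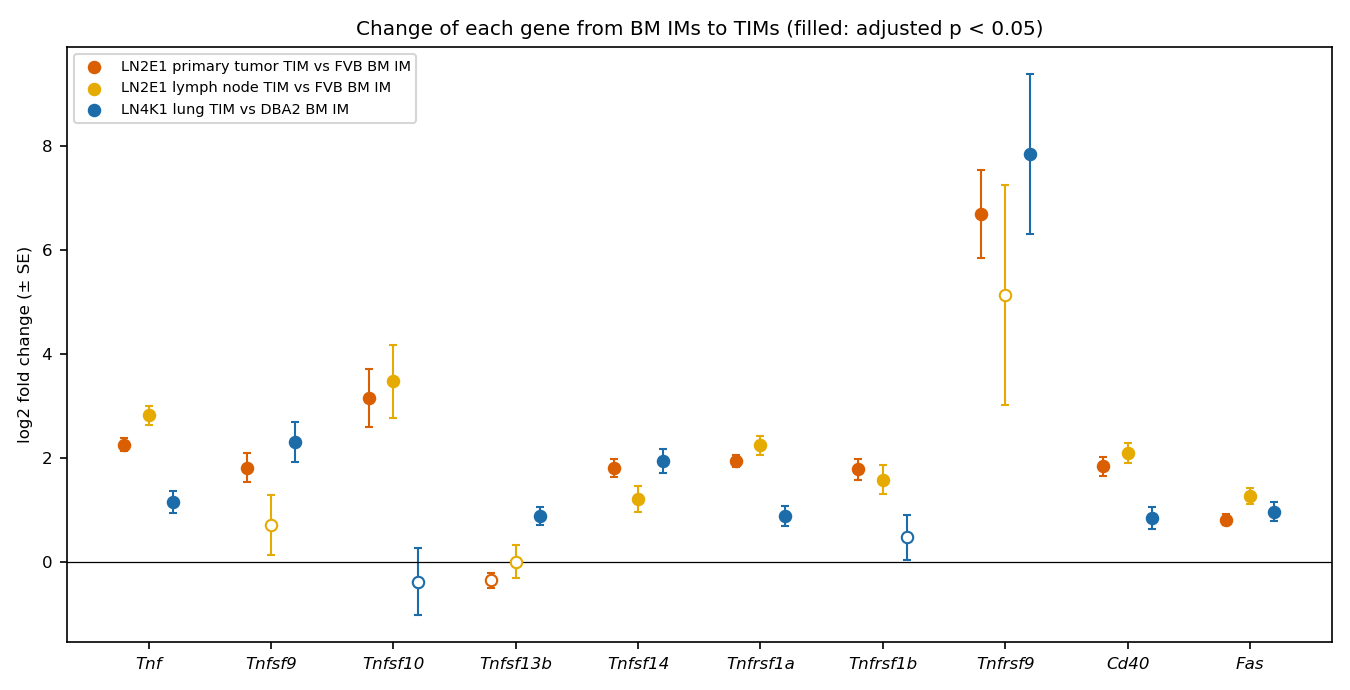
Log2 fold change (y axis, bar: SE) of the 10 genes (x axis) in 3 comparisons of TIMs with BM IMs of the same strain; filled points have an adjusted p under 0.05, open points do not. The open points are Tnfsf13b in both LN2E1 comparisons, Tnfsf9 and Tnfrsf9 in lymph node TIMs and Tnfsf10 and Tnfrsf1b in lung TIMs; the Tnfrsf9 values are fitted against few or 0 counts in BM IMs.

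Across genes, level and change were separate matters. Tnfrsf1b and Tnfrsf1a were the most abundant of the 10 in every group per kilobase, with means in primary tumor TIMs of 361 and 236 CPM per kilobase. Cd40 and Fas followed at 37.1 and 31.6, then the ligands Tnfsf14 at 23.2, Tnf at 18.2 and Tnfsf9 at 12.4. Tnfrsf9, Tnfsf13b and Tnfsf10 were lowest, at 2.01, 1.65 and 1.38 CPM per kilobase. In FVB BM IMs the same scale ran from 102 for Tnfrsf1b to 0.0191 for Tnfrsf9.

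Lymph node and primary tumor TIMs were compared within the LN2E1 model, where strain and line are shared. Metastasis and organ differ together in this comparison and cannot be told apart. The summed fibroblast genes also differed, with 365 to 1112 CPM in primary tumor and 0.836 to 87.1 CPM in lymph node TIMs. Tnf was 1.46-fold higher in lymph node than in primary tumor TIMs (log2 0.55, SE 0.11, adjusted p = 0.00855) and Fas 1.36-fold higher (log2 0.45, SE 0.11, adjusted p = 0.0198). These were the 2 of 10 genes that passed the threshold, against 6.15% of all genes tested higher and 5.55% lower. The Fas call was lost without primary tumor replicate 1 (adjusted p = 0.0541) or replicate 2 (adjusted p = 0.0577). With the replicate number added to the edgeR fit, Tnf and Fas both lost their call (adjusted p = 0.0718 and 0.0934). The other 8 genes did not pass, among them Tnfsf14 with a log2 difference of -0.61 (SE 0.19, adjusted p = 0.0582) and Cd40 with 0.26 (SE 0.14, adjusted p = 0.264). Tnfsf14 was called lower in DESeq2 without shrinkage (log2 -0.64, adjusted p = 0.0111), as was Tnfsf9 (log2 -1.12, adjusted p = 0.0348). In edgeR Tnfsf14 was also called lower in 1 fit of all 5 groups (adjusted p = 0.0313) and with 10 counts required in every library (adjusted p = 0.0342).

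A direct test asked whether the change from BM IMs differed between primary tumor TIMs of LN2E1 and lung TIMs of LN4K1. It did for 5 of the 10 genes, with 4 higher in LN2E1 and 1 higher in LN4K1, against 13.2% and 13.3% of all genes tested in the 2 directions. On the log2 scale the LN2E1 change exceeded the LN4K1 change by 1.13 for Tnf (SE 0.22, adjusted p = 0.00242), 1.07 for Tnfrsf1a (SE 0.23, adjusted p = 0.00373), 1.01 for Cd40 (SE 0.28, adjusted p = 0.0154) and 3.54 for Tnfsf10 (SE 0.91, adjusted p = 0.0106). The Cd40 call was lost without FVB BM replicate 2 (adjusted p = 0.0537). Leaving out 1 library moved the Tnfsf10 difference to between 3.03 (without DBA2 BM replicate 2) and 4.52 (without FVB BM replicate 1). Tnfsf13b differed the other way, by -1.22 (SE 0.22, adjusted p = 0.0016). Tnfrsf1b differed by 1.33 (SE 0.51, adjusted p = 0.0627), and by 1.10 (adjusted p = 0.0183) without lung replicate 3. For Tnfsf9, Tnfsf14, Fas and Tnfrsf9 the difference did not pass the threshold.

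The baselines themselves differed in some of the receptors. In DBA2 BM IMs, Cd40 (log2 0.72, SE 0.18, adjusted p = 0.0258), Tnfrsf1a (log2 0.54, SE 0.13, adjusted p = 0.0218) and Tnfrsf1b (log2 0.71, SE 0.19, adjusted p = 0.0305) were higher than in FVB BM IMs. These were 3 of 9 genes tested, Tnfrsf9 having too few counts, against 11.5% of all genes tested higher and 9.57% lower. All 3 calls were lost without FVB BM replicate 2, and also without DBA2 BM replicate 1 or 2. Tnfrsf1a and Cd40 were also among the genes with the smaller rise in LN4K1. That comparison of rises uses the same BM IM libraries, so the 2 results are not independent.

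The rest of the pathway was followed in 5 lists of genes by role. Of the other TNF superfamily ligands, 13 in all, 8, 4 and 7 had enough counts to be tested in primary tumor, lymph node and lung TIMs, and 3, 1 and 2 were higher and 0 lower. Of these, Tnfsf4 and Tnfsf15 in primary tumor and Fasl in lung TIMs had under 10 counts in at least 1 BM IM library and were tested through their TIM libraries, so they had to differ. Without the genes that low in BM IMs, 1 of 3, 1 of 3 and 1 of 4 ligands were higher, each time Ltb, beside 27.8%, 20% and 12.3% of all genes left by the same rule. The 2 called in lung TIMs became 3 without lung replicate 3 and 1 without DBA2 BM replicate 2 or replicate 3. At an unadjusted p under 0.05, 3, 1 and 4 were higher and 0 lower, and DESeq2 gave the same counts. Ltb, which with lymphotoxin alpha forms the ligand of the lymphotoxin beta receptor, had means of 35.0 ± 5.42 CPM (SD, n = 3) in FVB BM IMs and 53.5 ± 9.98 and 67.9 ± 12.7 CPM (n = 5 each) in primary tumor and lymph node TIMs, with log2 fold changes of 0.59 (SE 0.17) and 0.96 (SE 0.19). In DBA2 BM IMs its mean was 90.7 ± 7.30 CPM (n = 3) and in lung TIMs 171 ± 47.9 CPM (n = 5), a log2 fold change of 0.84 (SE 0.21). The adjusted p values were 0.0134, 0.0036 and 0.0166.

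Among the other TNF receptor superfamily genes, 9 of 18 tested were higher and 2 lower in primary tumor TIMs, 5 of 14 higher and 0 lower in lymph node TIMs, and 4 of 19 higher and 0 lower in lung TIMs. Over all genes tested the shares higher were 33.3%, 20.2% and 13.9%. The 9 include Tnfrsf11b, Eda2r and Tnfrsf13c, which had under 10 counts in at least 1 FVB BM IM library and were tested through their TIM libraries; without the genes that low in BM IMs, 6 of 13, 5 of 13 and 4 of 15 were higher. Leaving out single libraries moved the number called in either direction from 5 to between 3 (without FVB BM replicate 1) and 7 (without lymph node replicate 1) in lymph node TIMs, and from 4 to 7 in lung TIMs without lung replicate 3. Where the count was 0, the number lower at an unadjusted p under 0.05 was 0 in lymph node and 1 in lung TIMs, and DESeq2 gave 0 and 1. Tnfrsf12a, the receptor of the ligand TWEAK, averaged 7.57 CPM in FVB BM IMs, and rose in primary tumor (log2 2.68, SE 0.21, adjusted p = 5.09e-06) and in lymph node TIMs, where it averaged 38.9 CPM (log2 2.36, SE 0.23, adjusted p = 3.31e-05). It had 6.35 CPM in DBA2 BM IMs and 18.3 CPM in lung TIMs (log2 1.45, SE 0.18, adjusted p = 0.000355). Tnfrsf23, a mouse decoy receptor for TRAIL, rose from a mean of 2.69 to 20.2 CPM in primary tumor TIMs (log2 2.88, SE 0.25, adjusted p = 9.85e-06) and to 9.22 CPM in lymph node TIMs (log2 1.77, SE 0.48, adjusted p = 0.0153); in lung TIMs the log2 difference was 1.20 (SE 0.41, adjusted p = 0.0584). Tnfrsf11a, which encodes RANK, rose in all 3 comparisons, by log2 values of 1.86 (SE 0.24), 1.25 (SE 0.29) and 1.59 (SE 0.40), with adjusted p values of 0.000114, 0.00684 and 0.0191. In the lung comparison its mean went from 3.93 to 12.5 CPM. Tnfrsf13c, the BAFF receptor that B cells carry, averaged 0.233 CPM in FVB BM IMs and 2.02 CPM in primary tumor TIMs, a value given without its test because of the low BM counts. The 2 that fell in primary tumor TIMs were Tnfrsf18, or GITR, from 13.0 to 5.98 CPM (log2 -1.14, SE 0.21, adjusted p = 0.00126), and Tnfrsf13b, or TACI, from 28.7 to 21.0 CPM (log2 -0.48, SE 0.13, adjusted p = 0.0112).

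Of 22 receptor adaptors and ubiquitin enzymes tested, 13 (59.1%) were higher and 5 (22.7%) lower in primary tumor TIMs, where 33.3% and 28.6% of all genes were. In lymph node TIMs 11 were higher and 3 lower, or 50% and 13.6%, beside 20.2% and 17.2% of all genes. In lung TIMs 3 were higher and 3 lower, 13.6% each, beside 13.9% and 11.0%. Without FVB BM replicate 2, the 14 called in lymph node TIMs became 9. Traf1, an adaptor that NF-kB is known to induce, averaged 1.31 CPM in FVB BM IMs and 46.7 and 60.5 CPM in primary tumor and lymph node TIMs (log2 5.12, SE 0.30, and 5.52, SE 0.36). In lung TIMs it averaged 15.9 CPM against 1.64 CPM in DBA2 BM IMs (log2 3.20, SE 0.54). Its adjusted p values were 1.09e-06, 2.89e-06 and 0.00214, and its rise was larger in LN2E1 primary tumor than in LN4K1 lung TIMs by 1.94 on the log2 scale (SE 0.56, adjusted p = 0.0197).

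Tnfaip3, the ubiquitin-editing enzyme that limits NF-kB signalling, averaged 56.0 CPM in FVB BM IMs, 493 CPM in primary tumor TIMs (log2 3.11, SE 0.24, adjusted p = 4.63e-06) and 415 CPM in lymph node TIMs (log2 2.89, SE 0.25, adjusted p = 1.71e-05). It averaged 164 CPM in DBA2 BM IMs and 221 CPM in lung TIMs, a difference that was not called (log2 0.36, SE 0.28, adjusted p = 0.402). Its change in LN2E1 primary tumor TIMs exceeded that in LN4K1 by 2.77 (SE 0.38, adjusted p = 0.00028). Birc3, the inhibitor of apoptosis cIAP2, was higher in primary tumor, lymph node and lung TIMs, by log2 values of 0.71 (SE 0.08), 0.91 (SE 0.11) and 0.86 (SE 0.13), with adjusted p values of 6.16e-05, 0.000114 and 0.00104. Traf2 was lower in all 3, by log2 values of -0.71 (SE 0.12), -0.73 (SE 0.20) and -1.06 (SE 0.15), with adjusted p values of 0.000691, 0.0175 and 0.000943. Tab1, a partner of the kinase TAK1, was lower in primary tumor (log2 -1.26, SE 0.17, adjusted p = 0.000194) and lymph node TIMs (log2 -1.25, SE 0.36, adjusted p = 0.0198), and its log2 difference in lung TIMs was -0.68 (SE 0.31, adjusted p = 0.143). Of the named adaptor genes Traip fell most, from a mean of 26.3 CPM in FVB BM IMs to 1.92 and 1.25 CPM in primary tumor and lymph node TIMs and from 33.5 to 0.558 CPM in lung TIMs. Its protein binds TRAFs and is also known for a role in DNA replication in dividing cells.

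Of 11 death signalling genes tested, 5 were higher and 2 lower in primary tumor TIMs (45.5% and 18.2%, beside 33.3% and 28.6% of all genes), 5 higher and 1 lower in lymph node TIMs (45.5% and 9.09%, beside 20.2% and 17.2%), and 2 higher and 2 lower in lung TIMs (18.2% each, beside 13.9% and 11.0%). The primary tumor and lung shares lie near those of all genes. The 4 called in lung TIMs became 6 without lung replicate 3 and 2 without DBA2 BM replicate 2 or replicate 3. Cflar, which encodes the caspase-8 inhibitor FLIP, rose in primary tumor (log2 1.27, SE 0.16), lymph node (log2 1.0, SE 0.17) and lung TIMs (log2 0.71, SE 0.12), with adjusted p values of 0.000101, 0.00107 and 0.00194. Bid, a pro-apoptotic substrate of caspase-8, fell in primary tumor (log2 -1.08, SE 0.09), lymph node (log2 -1.01, SE 0.11) and lung TIMs (log2 -0.39, SE 0.10), with adjusted p values of 1.01e-05, 7.8e-05 and 0.0193. Daxx, a Fas-binding protein that is also a chromatin factor, rose from a mean of 57.9 CPM to 333 and 504 CPM in the 2 LN2E1 groups (log2 2.50, SE 0.16, adjusted p = 1.56e-06, and log2 3.12, SE 0.28, adjusted p = 2.23e-05), and its log2 difference in lung TIMs was 0.21 (SE 0.25, adjusted p = 0.599).

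Of the genes of necroptosis, Ripk3 rose in primary tumor (log2 0.82, SE 0.16, adjusted p = 0.00156) and lymph node TIMs (log2 1.08, SE 0.22, adjusted p = 0.00347), and in lung TIMs its log2 difference was -0.37 (SE 0.14, adjusted p = 0.0876). Mlkl fell in lung TIMs (log2 -0.93, SE 0.20, adjusted p = 0.00802), with log2 differences of -0.23 (adjusted p = 0.0986) and -0.19 (adjusted p = 0.541) in primary tumor and lymph node TIMs. Casp8 rose in primary tumor (log2 0.29, SE 0.09, adjusted p = 0.0226) and lung TIMs (log2 0.47, SE 0.13, adjusted p = 0.0304), and its lymph node value was 0.33 (adjusted p = 0.104). Faim, an inhibitor of Fas-driven apoptosis, fell in primary tumor TIMs (log2 -1.06, SE 0.14, adjusted p = 0.000146), with log2 differences of -0.39 (adjusted p = 0.0977) in lymph node and 0.15 (adjusted p = 0.704) in lung TIMs.

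Genes for shedding and processing of the ligands and receptors were higher in 9 of 9 tested in primary tumor TIMs, 5 of 9 in lymph node TIMs and 3 of 9 in lung TIMs, beside 33.3%, 20.2% and 13.9% of all genes, and 0 were lower in each, in edgeR with or without adjustment of p and in DESeq2. Furin, the protease that matures several ligands and the sheddases, averaged 8.38 CPM in FVB BM IMs, 69.6 CPM in primary tumor TIMs (log2 3.03, SE 0.30, adjusted p = 2.82e-05) and 38.9 CPM in lymph node TIMs (log2 2.21, SE 0.32, adjusted p = 0.000513). From DBA2 BM IMs to lung TIMs its mean rose from 13.7 to 34.1 CPM (log2 1.24, SE 0.20, adjusted p = 0.00152). Rhbdf1, an inactive rhomboid that helps bring the TNF-cleaving protease to the surface, rose in primary tumor (log2 2.68, SE 0.38, adjusted p = 0.000218) and lung TIMs (log2 1.33, SE 0.38, adjusted p = 0.0316), and its log2 difference in lymph node TIMs was 0.05 (SE 1.25, adjusted p = 0.982). Sppl2a, a protease that cuts the membrane stub of TNF, rose in lymph node TIMs from 87.3 to 378 CPM (log2 2.12, SE 0.18, adjusted p = 1.43e-05) and in primary tumor TIMs (log2 1.06, SE 0.15, adjusted p = 0.000268), and in lung TIMs its log2 difference was 0.42 (SE 0.19, adjusted p = 0.138). Timp3, an inhibitor of the TNF-cleaving protease, was at 0 counts in all DBA2 BM IM libraries and between 1.07 and 9.09 CPM in lung TIMs. It was tested there through its lung TIM libraries alone and so had to differ; without it 2 of 8 genes were higher in lung TIMs. In primary tumor TIMs it rose by a log2 value of 2.38 (SE 0.50, adjusted p = 0.00263), and in lymph node TIMs the value was -0.52 (SE 1.89, adjusted p = 0.859).

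**Figure D4:**
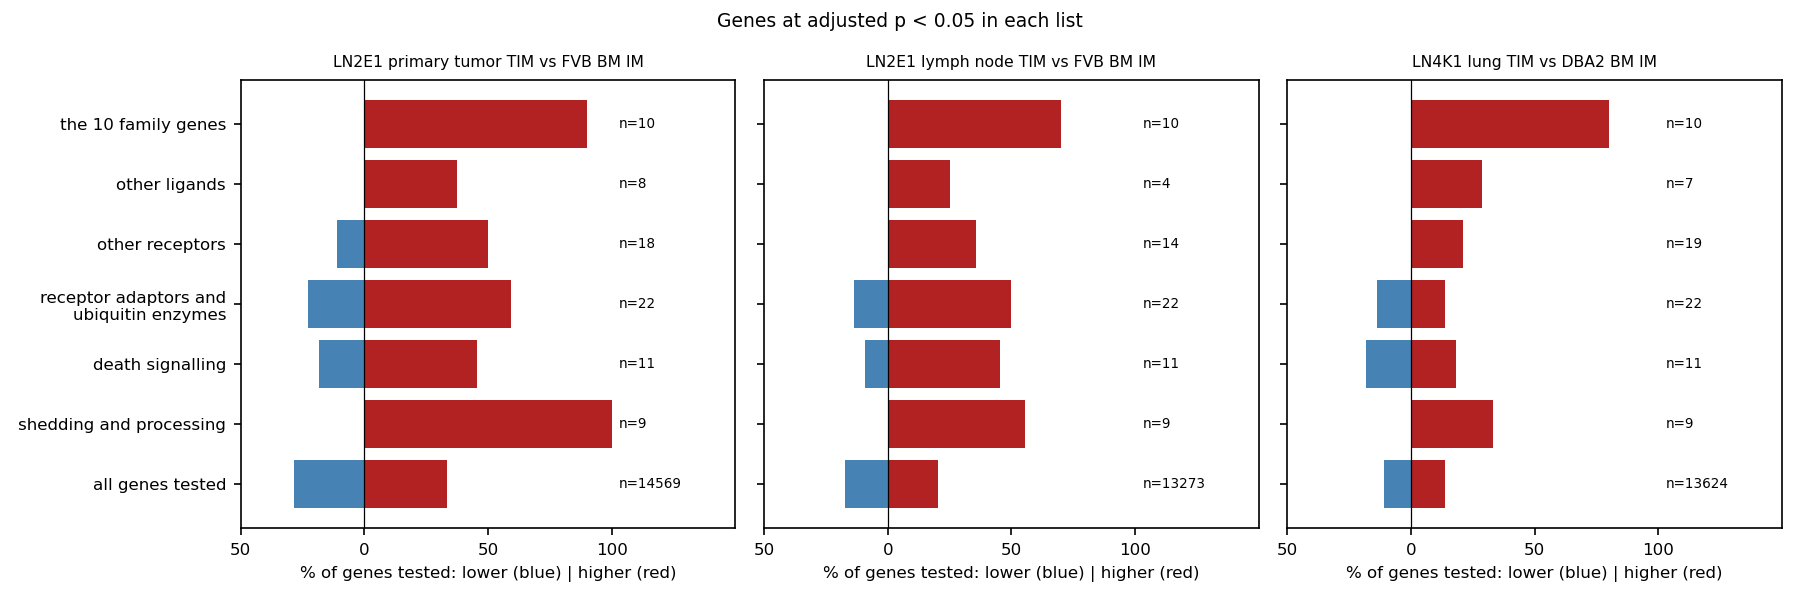
Percent of the genes tested (x axis) that were higher (red, right of 0) or lower (blue, left of 0) at an adjusted p under 0.05 in TIMs than in BM IMs, for the 10 family genes, 5 lists of pathway genes and all genes tested, with the number tested (n) beside each bar; 1 panel per comparison. All 9 shedding genes tested are higher in primary tumor TIMs, where 33.3% of all genes tested are; the bars include genes near 0 counts in BM IMs.

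Markers of other cells moved with the same groups and were measured beside these results. The summed CPM of 6 fibroblast genes was at most 0.193 in FVB BM IMs, between 365 and 1112 in primary tumor TIMs, between 0.836 and 87.1 in lymph node TIMs and between 1.31 and 43.0 in lung TIMs, against at most 0.359 in DBA2 BM IMs. In FVB BM IMs 5 of those 6 genes, Col1a1, Col3a1, Dcn, Pdgfra and Lum, had at most 3 counts in any library. The 8 T cell genes summed to between 3.21 and 4.41 CPM in FVB BM IMs, 16.3 and 45.3 in primary tumor, 6.22 and 95.5 in lymph node and 9.21 and 28.8 in lung TIMs, against 1.60 to 3.09 in DBA2 BM IMs. In single lymph node libraries Cd8b1 reached 37.4, Cd4 33.4 and Cd8a 20.6 CPM, and Cd3e reached 1.58 CPM in a lung library. Median levels of Cd3d, Cd3e and Cd3g in lymph node TIMs were 0.308, 0.132 and 0 CPM. Lat alone of the 8 was lower in primary tumor TIMs (log2 -1.04, SE 0.35, adjusted p = 0.0276). Cd3e, Cd8a and Cd8b1 had at most 3 counts in every BM IM library. The 7 NK cell genes summed to at most 0.422 CPM in DBA2 BM IMs and to between 12.4 and 22.5 CPM in lung TIMs, and to between 0.661 and 10.3, 5.75 and 10.7, and 3.03 and 20.4 CPM in FVB BM IMs, primary tumor and lymph node TIMs.

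The 9 dendritic cell genes summed to between 78.7 and 89.7 CPM in FVB BM IMs. Their sums were 168 to 332 CPM in primary tumor and 87.3 to 616 CPM in lymph node TIMs. They were 93.5 to 109 CPM in DBA2 BM IMs and 130 to 347 CPM in lung TIMs. Much of the LN2E1 sums was Siglech, with 64.7 to 175 CPM in primary tumor and 37.1 to 477 CPM in lymph node TIMs. It had at most 1.31 CPM in FVB BM IMs. Median Cd209a was lower, at 58.8 and 45.8 CPM in these TIMs against 76.0 CPM in FVB BM IMs. Of the 9 genes, 7, 5 and 2 were called higher in primary tumor, lymph node and lung TIMs, and 0, 0 and 1 lower. Of 8 squamous epithelial genes, summed to at most 2.44 CPM in any BM IM library and at most 140 CPM in any TIM library, Cdh1 reached 73.2, 136 and 37.2 CPM in primary tumor, lymph node and lung TIMs against at most 2.05 CPM in BM IMs. Krt8 and Krt18 reached 36.0 and 45.7 CPM in lung TIMs, and Epcam 8.21, 4.40 and 1.25 CPM in the 3 TIM groups. Krt14, Krt6a and Trp63 had at most 3 counts in every lymph node library and Krt5 and Krt6a in every lung library. The sum of 8 neutrophil genes went the other way, from at least 4160 CPM in FVB BM IMs to at most 852 and 671 CPM in primary tumor and lymph node TIMs, and from at least 2680 to at most 1426 CPM in the LN4K1 pair. Mpo, Elane, Camp, Ngp and Ltf were lower in all 3 comparisons, whereas Cxcr2 was higher in primary tumor (log2 3.66) and lymph node TIMs (log2 1.98) and Mmp8 in primary tumor (log2 0.47) and lung TIMs (log2 1.80). The sum of 5 eosinophil genes fell from at least 417 CPM in any BM IM library to at most 68.0 CPM in any TIM library. The sums of 7 B cell genes overlapped between TIMs and BM IMs in all 3 comparisons, and Pax5 had at most 3 counts in every library. Single genes of that list moved in opposite directions. In primary tumor TIMs Cd22 was higher (log2 3.23, adjusted p = 4.13e-05) and Cd79b lower (log2 -1.36, adjusted p = 0.000979). Cd79b was also lower in lymph node TIMs (log2 -0.76, adjusted p = 0.0359). The 6 macrophage genes summed to at most 1337 CPM in FVB BM IMs and at least 2131 in LN2E1 TIMs, and to at most 1869 in DBA2 BM IMs and at least 3624 in lung TIMs. Most of that sum was Apoe, with medians of 1168 CPM in FVB BM IMs and 4612 CPM in lung TIMs, while C1qa, C1qb and C1qc had log2 differences of -1.10, -0.79 and -1.02 in lung TIMs, C1qc alone called. In the LN2E1 groups neither these 3 nor Mrc1 passed the test. The 7 alveolar macrophage genes summed to values that went from at least 203 CPM in FVB BM IMs to at most 63.2 and 117 in the 2 LN2E1 groups, and from at least 67.5 to at most 44.3 CPM in the LN4K1 pair. Ear1 and Ear2 were lower in all 3 comparisons, whereas Pparg was higher in primary tumor (log2 2.15) and lymph node TIMs (log2 3.32), Fabp4 in lymph node TIMs (log2 1.97) and Car4 in lung TIMs. The 6 endothelial genes summed to at most 8.32 CPM in any BM IM library and 30.7 CPM in any TIM library. The part of these markers in the levels of the 10 genes was not tested.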

How the data were processed

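RNA of 21 libraries was analysed, with groups taken from the sample labels. The authors deposited raw read counts for 23420 gene symbols: adapters were trimmed with BBDuk, read pairs aligned to mm10 with BBMap and reads counted on genes with featureCounts (version 1.5.2 per the submitters' processing notes). The settings of featureCounts are not given in the sources used here. Libraries were amplified from little RNA and do not mark strand. Duplicates made by that amplification cannot be told from separate molecules in the counts. Total counts lay between 80772922 and 101043568. No 2 libraries of a group agreed within sampling noise, and no column lacked a sample.

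The main test was edgeR (4.0.16, R 4.3.3) with TMM scaling, filterByExpr (minimum count 10, total 15) and robust quasi-likelihood fits on the libraries of each comparison, Benjamini-Hochberg adjusted over all genes tested at 0.05. The difference between models was an interaction term over 4 groups. The study's thresholds (adjusted p under 0.0001, absolute log2 fold change over 1) were counted beside it. The scripts were tested on simulated data. CPM used TMM-scaled totals, and lengths per kilobase are unions of exons. Alternatives were DESeq2 (1.42.0), its size factors, other count filters, 1 fit of all groups, a replicate block and leaving out each library. Replicate numbers were not used to pair samples in the main test. In no comparison was every correlation of same-numbered deviations over 0.1, but so few libraries cannot exclude pairing. In the comparison of lymph node TIMs with FVB BM IMs the correlations were 0.28, 0.08 and 0.3.

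All 10 genes were named whatever their values. Of each pathway list and comparison with BM IMs, up to 2 genes per direction with the largest called change and a mean of at least 1 CPM were named. Tnfsf4, Tnfsf15, Fasl, Tnfrsf11b, Eda2r and single marker genes were named after their values were seen, as was the rule of 10 counts in each BM IM library. The genes and lists were chosen with earlier results of these data known. Otulin, Ly6g, Adgre1 and Siglecf, which are on the lists, were not analysed here.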

Additional observations from a re-analysis of the deposited data

Results flagged for a closer look

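In 30 sets of 5 libraries (10 genes in 3 TIM groups), 4 held 1 library far from the other 4 by Dixon's test, where chance alone gives about 1 in 20 sets. Tnf was lowest in lymph node replicate 3 at 34.9 CPM, against 44.2 to 47.4 CPM in the others. Tnfsf13b was highest in lymph node replicate 1 at 24.5 CPM, against 10.0 to 13.7 CPM. Tnfrsf1b was highest in primary tumor replicate 1 at 1760 CPM, against 1228 to 1367 CPM. Fas was highest in lung replicate 3 at 105 CPM, against 62.5 to 72.7 CPM.

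The change from BM IMs differed between LN2E1 primary tumor and LN4K1 lung TIMs, by the interaction term in edgeR, for 5 genes. The LN2E1 change minus the LN4K1 change was 1.13 on the log2 scale for Tnf, 3.54 for Tnfsf10, 1.07 for Tnfrsf1a and 1.01 for Cd40, and -1.22 for Tnfsf13b. Line, strain, route, number of cells injected and tissue differ together between the models and cannot be told apart.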

How the results depend on the processing

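The 24 called changes of the 10 genes against BM IMs had 334 values in alternative fits, most of them with 1 library left out. Of these, 327 kept the call, 7 lost it and 0 changed sign. All 7 losses were in lung TIMs. Tnf, Tnfsf13b, Tnfrsf1a, Tnfrsf9 and Cd40 lost the call with the replicate block (adjusted p = 0.0632, 0.0501, 0.104, 0.18 and 0.0626). Cd40 also lost it without DBA2 BM replicate 2 or replicate 3. With the replicate block, the genes called numbered 9, 7 and 3 in primary tumor, lymph node and lung TIMs (9, 7 and 8 without it), 0 between lymph node and primary tumor (2 without), 3 between strains and 5 in the interaction. Over all genes the block gave 5954 in primary tumor TIMs (9025 without), 1324 in lung TIMs (3389) and 533 between lymph node and primary tumor (1578). Whether the numbers pair the samples is not known. Deviations correlated best with the library of the same number for 3 of 3 numbers in the lymph node comparison, 2 of 3 in the lung comparison and 0 of 3 in the primary tumor comparison. At the study's thresholds, DESeq2 with shrunken fold changes gave 8, 7 and 4 of the 10 genes, against 5, 3 and 0 in edgeR, and 4006, 2402 and 1565 genes in all, against 1879, 758 and 405. DESeq2 without shrinkage called 4 of the 10 between lymph node and primary tumor TIMs, 2 higher and 2 lower (Tnfsf9 and Tnfsf14), and 3092 genes in all. The fit of all 5 groups called 1 of the 10 and 1595 genes in all between strains, against 3 and 2719.

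Leaving out 1 library at a time, the genes called among the 10 ranged from 9 to 10 in primary tumor, 7 to 8 in lymph node and 7 to 9 in lung TIMs, 1 to 3 between lymph node and primary tumor, 0 to 3 between strains and 4 to 6 in the interaction. The gene added in primary tumor TIMs was Tnfsf13b, called lower without primary tumor replicate 1. At the study's thresholds the ranges were 2 to 5, 1 to 3 and 0 to 2. Over all genes they were 7716 to 9066, 3369 to 6040, 2134 to 5036, 889 to 2256, 1115 to 4828 and 2734 to 4708, and at the study's thresholds 938 to 2031, 307 to 977 and 115 to 840.

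Of 903 alternative values of single genes 10 changed sign, none of them called. Tnfsf13b in lymph node TIMs went from 0.01 to -0.01 with 10 counts required in every library, 0.00 in the fit of all groups, -0.10 without FVB BM replicate 2 and -0.28 without lymph node replicate 1 (leaving out 1 library, -0.28 to 0.11). Tnfsf10 in lung TIMs went from -0.37 to 0.41 with the block and 0.14 without DBA2 BM replicate 2 (range -0.87 to 0.14). Between strains, Tnfsf9 went from -0.15 to 0.21 without FVB BM replicate 1 (range -0.40 to 0.21) and Fas from 0.04 to -0.04 without FVB BM replicate 3. In the interaction, Tnfrsf9 went from -1.15 to 0.48 without FVB BM replicate 2 (range -1.73 to 0.48) and Fas from -0.13 to 0.00 without lung replicate 3 (range -0.24 to 0.00). The cause of these moves was not tested. Shrunken DESeq2 was run for the 3 comparisons with BM IMs.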
